A study of Mus musculus with 18 samples.

Results

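The genes described here are 9 regulators known from the loop of Henle and the distal nephron: *Foxq1*, *Irx1*, *Irx2*, *Irx3*, *Pou3f3*, *Sim2*, *Tfap2b*, *Esrrg* and *Ppargc1b*. They were picked by name, with earlier results of these data known, and are 9 of the 55401 genes in the deposited tables. Thick ascending limb (TAL) tubules were dissected by hand from kidneys of adult male mice and sequenced as 18 pools, each from its own animal. They were cortical (CTAL) or medullary (MTAL), the latter taken from the inner stripe. All mice carried floxed *Cldn10* alleles (*Cldn10* fl/fl, over a mostly C57BL/6 background). In the conditional knock-out (cKO) mice the Ksp-cadherin promoter drove an added Cre recombinase, along the distal nephron and not in the TAL alone. Their littermates without Cre are called WT. The groups WT CTAL, WT MTAL and cKO CTAL held 5 pools each, and cKO MTAL held 3. Mineral deposits in the outer medulla of the cKO mice made their MTAL hard to dissect, so that the cKO MTAL group is small and rests on the tubules that could be recovered.

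The TAL reabsorbs salt without water, and its medullary and cortical parts differ in the ions that cross between the cells. *Cldn10* encodes claudin-10, a tight junction protein that lets sodium pass between TAL cells. Transcription factors of the forkhead, Iroquois homeobox, POU, single-minded and AP-2 families set the identity of nephron segments during development, and several remain expressed in the adult TAL. The estrogen-related receptors and their PGC-1 coactivators drive the genes of mitochondrial respiration, on which salt transport in this segment depends.

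Total counts lay between 10824299 and 62339939 per pool, and a member gene had between 336 and 26434 counts in a pool. *Cldn10* lay between 384 and 579 CPM (counts scaled to TMM-normalized library sizes) in WT CTAL, 156 to 185 in cKO CTAL, 653 to 810 in WT MTAL and 151 to 296 in cKO MTAL, with no overlap by genotype within a segment. The study kept only cKO pools in which it was lower and left out a cKO CTAL pool on its level, so that this separation was partly set by selection and is no check of the labels. The 8 TAL markers summed to between 51819 and 99538 CPM per pool. Of the markers of other tubule and stromal cells, *Slc2a2*, *Slc5a12* (both proximal tubule) and *Pvalb* (distal convoluted tubule) were listed at 0 in 1, 5 and 8 pools. WT CTAL replicate 1 has conflicting labels (its genotype field says knock-out and its pool name says WT) and was used as WT. Its *Cldn10* level was 446 CPM. Although the study states male mice, *Xist* RNA reached 1 CPM or more in 7 pools beside Y-linked RNA in every pool, namely in 4 WT MTAL, 2 WT CTAL and 1 cKO CTAL pools and in no cKO MTAL pool.

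All 9 genes were present at 3 CPM or more in each of the 18 pools, so that each of them passed the filter on low counts in all comparisons. Levels of different genes are compared here in TPM, a share of transcripts that corrects for their length. In WT CTAL, *Irx1* was the highest at 212 ± 29.1 TPM (SD, n = 5), followed by *Tfap2b* at 108 ± 20.03, *Pou3f3* at 95.7 ± 5.58, *Irx2* at 88.6 ± 6.76, *Sim2* at 63.1 ± 5.002, *Esrrg* at 55.0 ± 8.41, *Irx3* at 28.3 ± 6.94, *Foxq1* at 27.0 ± 5.04 and *Ppargc1b* at 11.1 ± 2.47 TPM. *Irx1* exceeded the next gene in 5 of 5 pools, as did *Irx2*, *Esrrg* and *Foxq1*. *Tfap2b* and *Pou3f3*, *Pou3f3* and *Irx2*, *Sim2* and *Esrrg*, and *Irx3* and *Foxq1* were neighbours whose order changed in at least 1 of 5 pools. *Irx1* was the highest and *Ppargc1b* among the lowest in the other groups too. *Foxq1* ranked 8 of 9 in WT CTAL, 7 in cKO CTAL and 8 in cKO MTAL, and in WT MTAL it was the lowest of the 9 genes at 5.40 ± 0.62 TPM, below *Ppargc1b* in 5 of 5 pools.

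**Figure D1:**
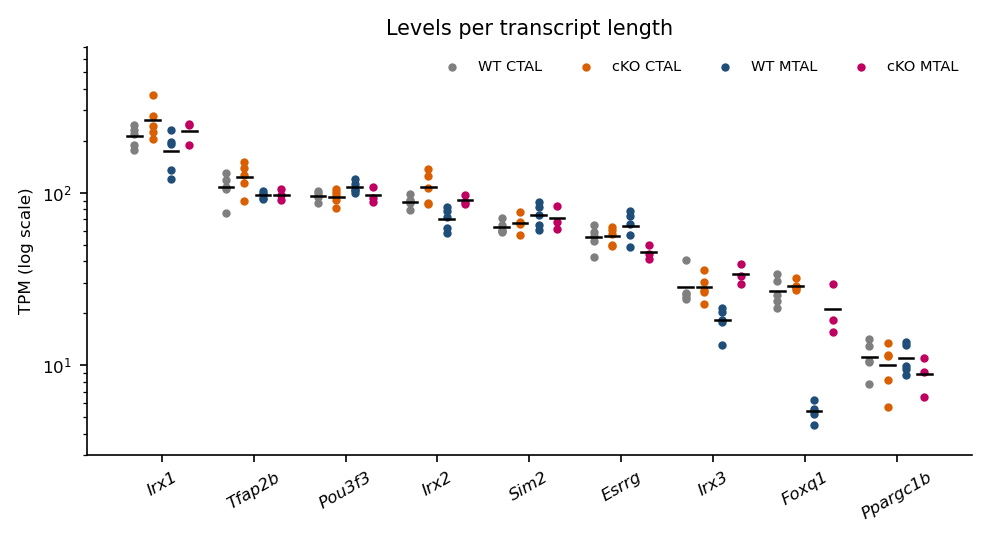
TPM of the 9 genes (log axis) in the 18 pools, grouped by gene and colored by group, with points for pools and bars for group means. *Irx1* lies highest in each group, and the WT MTAL points of *Foxq1* (4.50 to 6.23 TPM) lie below all others of that gene.

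*Foxq1*, which encodes a forkhead transcription factor, was the member that differed most between the segments. In WT CTAL its level was 109, 89.9, 85.0, 72.6 and 128 CPM in replicates 1, 3, 8, 10 and 22. In WT MTAL it was 24.7, 19.2, 17.1, 19.2 and 21.8 CPM in replicates 11, 13, 15, 17 and 19. The groups did not overlap: the highest WT MTAL pool had less than the lowest WT CTAL pool. The ratio of WT MTAL to WT CTAL was 0.210, a log2 fold change of -2.25 (SE 0.15, adjusted p = 1.13e-07, edgeR quasi-likelihood F test), and 6.87% of the 11650 genes tested passed an adjusted p of 0.05 in this comparison. In these bulk pools, fewer cells that express a gene and less RNA per cell cannot be told apart.

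In cKO MTAL, *Foxq1* stood at 55.1, 59.8 and 102 CPM in replicates 16, 18 and 20, each above every WT MTAL pool. *Foxq1* thus rose 3.56 times with the knock-out in MTAL (log2 fold change 1.83, SE 0.20, adjusted p = 4.76e-05), where 7.01% of 12060 genes passed. In cKO CTAL the levels were 98.1, 91.2, 91.8, 76.4 and 112 CPM in replicates 2, 4, 7, 9 and 21, which lie within the range of WT CTAL. The difference between cKO CTAL and WT CTAL was a log2 fold change of -0.06 (SE 0.14, adjusted p = 0.919). The genotype effects of the segments differed by 1.88 on the log2 scale (SE 0.25, adjusted p = 0.00121), and by unadjusted p this was the first of the 12586 genes in the interaction test. 0.286% of those genes passed.

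Between cKO MTAL and WT CTAL, *Foxq1* had a log2 fold change of -0.42 (SE 0.21, adjusted p = 0.296), and between cKO MTAL and cKO CTAL of -0.33 (SE 0.20, adjusted p = 0.418). Replicate 20 is the only cKO MTAL pool within the range of the CTAL pools. Without it, *Foxq1* was lower in cKO MTAL than in cKO CTAL by 0.68 on the log2 scale (adjusted p = 0.0455), and the rise over WT MTAL was 1.51 (adjusted p = 0.000246), a ratio of 2.84. Replicate 20 also held the most RNA of collecting duct cells: the 7 principal cell markers, none of them listed at 0 in any pool, summed to 1014 CPM there, 98.8 and 101 in the other cKO MTAL pools and 52.7 to 325 in WT MTAL. The part of these cells in the level of *Foxq1* was not tested. The antisense gene *A530084C06Rik* overlaps *Foxq1* (chromosome 13, 31556134 to 31560976, plus strand, mm10) and had at most 2.64 CPM in any pool.

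**Figure D2:**
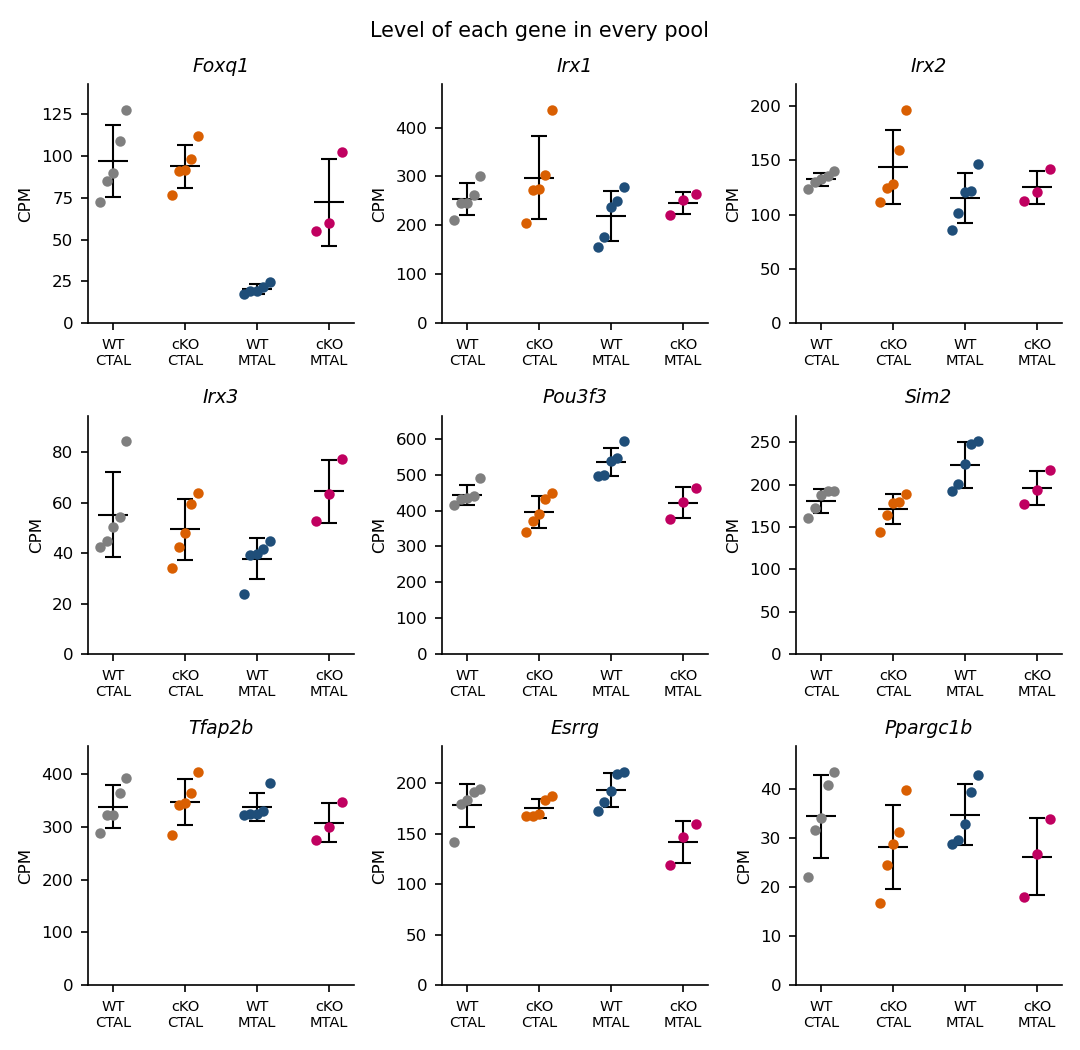
CPM (TMM-normalized, vertical axes from 0) of each of the 9 genes in WT CTAL, cKO CTAL, WT MTAL and cKO MTAL, with 1 point per pool and the mean ± SD. For *Foxq1* the 5 WT MTAL pools (17.1 to 24.7 CPM) lie below the 3 cKO MTAL pools (55.1 to 102 CPM) and below all CTAL pools.

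*Irx1*, *Irx2* and *Irx3* encode Iroquois homeobox proteins, which pattern the intermediate part of the nephron. *Irx1* (13:71957921-71963723, minus strand) and *Irx2* (13:72628820-72634198, plus strand) share a gene cluster on chromosome 13, with start sites 665097 bases apart, and *Irx3* (8:91798525-91802067, minus strand) lies in another cluster on chromosome 8. The homeobox makes the coding sequences of the 3 genes alike, which bears on how well reads can be assigned to each. The block of 150 coding bases in which they are most alike is shown for this reason, 5′ to 3′ from the GENCODE transcripts of GRCm38 (the build also called mm10), with capitals at the 15 positions where the 3 genes are not all the same:
Irx1 (coding bases 430 to 579): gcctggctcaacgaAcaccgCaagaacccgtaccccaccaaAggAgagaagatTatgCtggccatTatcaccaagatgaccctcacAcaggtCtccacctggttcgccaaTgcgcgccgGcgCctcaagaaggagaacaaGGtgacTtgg
Irx2 (coding bases 394 to 543): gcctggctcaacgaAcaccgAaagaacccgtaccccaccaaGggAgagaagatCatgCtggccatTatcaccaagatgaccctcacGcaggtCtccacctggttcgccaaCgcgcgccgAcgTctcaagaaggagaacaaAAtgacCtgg
Irx3 (coding bases 439 to 588): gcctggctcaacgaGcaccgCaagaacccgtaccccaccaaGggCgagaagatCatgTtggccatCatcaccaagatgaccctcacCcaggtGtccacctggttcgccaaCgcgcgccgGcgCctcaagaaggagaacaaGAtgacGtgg

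Within this block *Irx1* and *Irx2* were identical at 93.3% of bases, and each of them was identical to *Irx3* at 92.7%. The longest run of identical bases anywhere in the transcripts was 32 between *Irx1* and *Irx2*, 30 between *Irx1* and *Irx3* and 26 between *Irx2* and *Irx3*. How the counting treated reads that match more than one gene is not given in the sources used here. The deposited counts of *Irx1* were whole in every pool. Those of *Irx2* were not whole only in WT MTAL replicate 13 (5742.98). Those of *Irx3* were not whole only in cKO CTAL replicate 2 (2090.99) and WT CTAL replicate 3 (577.99).

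*Irx3* was the Iroquois gene that differed with the knock-out. Its level was 44.8, 41.5, 39.4, 23.7 and 39.7 CPM in the WT MTAL replicates 11, 13, 15, 17 and 19. The cKO MTAL replicates 16, 18 and 20 had 63.4, 52.6 and 77.4 CPM, each above the highest WT MTAL pool. *Irx3* rose 1.71 times, a log2 fold change of 0.78 (SE 0.19, adjusted p = 0.0238). This call was lost without WT MTAL replicate 15 or 19 or cKO MTAL replicate 16 or 20. The adjusted p then lay between 0.0503 and 0.111 and the log2 fold change between 0.63 and 0.80. It was also lost with limma on log2(TPM + 1) (log2 fold change 0.86, adjusted p = 0.0505), where the test and the unit both differ. In TPM the groups did not overlap (29.7 to 38.5 in cKO MTAL and 13.1 to 21.4 in WT MTAL). *Irx3os*, an antisense RNA that overlaps *Irx3*, was at 0.17 to 0.54 CPM in WT MTAL and 0.47 to 4.35 CPM in cKO MTAL, so that it was far below *Irx3* itself.

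In CTAL, *Irx3* stood at 50.4, 54.4, 42.4, 44.7 and 84.4 CPM in the WT replicates 1, 3, 8, 10 and 22 and at 42.3, 63.6, 48.1, 34.2 and 59.3 CPM in the cKO replicates 2, 4, 7, 9 and 21. These groups overlapped and their log2 fold change was -0.17 (SE 0.19, adjusted p = 0.794). WT MTAL and WT CTAL overlapped in CPM as well, with a log2 fold change of -0.55 (SE 0.19, adjusted p = 0.104). The likelihood ratio test of DESeq2 gave an adjusted p of 0.04 for that difference. In TPM the same groups did not overlap (13.1 to 21.4 in WT MTAL and 24.2 to 40.7 in WT CTAL). The genotype effects of the segments differed by 0.93 for *Irx3* (SE 0.30, adjusted p = 0.13), which does not pass the threshold.

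*Irx1* and *Irx2* overlapped between all pairs of groups in CPM. *Irx1* was at 246, 246, 210, 262 and 300 CPM in WT CTAL and at 237, 279, 249, 156 and 176 CPM in WT MTAL. In cKO MTAL it reached 221, 253 and 263 CPM, and the log2 fold change over WT MTAL was 0.17 (SE 0.17, adjusted p = 0.591). The cKO CTAL pools had 272, 302, 273, 206 and 436 CPM, and replicate 21 was the highest of all 18 pools. *Irx2* behaved alike, with 124 to 140 CPM in WT CTAL, 85.9 to 146 in WT MTAL, 112 to 196 in cKO CTAL and 113 to 142 in cKO MTAL. Its log2 fold change between cKO MTAL and WT MTAL was 0.13 (SE 0.15, adjusted p = 0.67). In TPM, however, *Irx2* did not overlap between these groups (86.1 to 96.4 in cKO MTAL and 58.4 to 82.0 in WT MTAL), and in cKO MTAL it lay within the range of the CTAL pools.

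Ratios of counts within a pool do not depend on the scaling of the library. The ratio of *Irx3* to *Irx2* counts lay between 0.276 and 0.390 in WT MTAL and between 0.434 and 0.562 in cKO MTAL, a mean difference of 0.65 on the log2 scale (exact two-sided permutation test, p = 0.0357, the smallest that 3 pools against 5 can give). That of *Irx3* to *Irx1* differed by 0.59 (p = 0.0714, exact permutation test), whereas the ratio of *Irx2* to *Irx1* differed by -0.05 (p = 0.679, exact permutation test). Between cKO CTAL and WT CTAL the ratios of *Irx3* went the other way, by -0.35 to *Irx1* and -0.24 to *Irx2* (p = 0.0714 and 0.214, exact permutation test). These ratios were chosen after the values were seen, and over the 15 ratio tests made (3 ratios in 5 comparisons) the lowest Benjamini-Hochberg adjusted p was 0.214. *Irx1* and *Irx2* were also the most alike pair of members across pools, with Pearson's r = 0.90 of log2(CPM + 1) over 18 pools. That r describes these libraries, which share their group structure.

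*Pou3f3* (Brn1) encodes a POU domain factor that the loop of Henle needs to elongate and to express its transport genes. It was at 441, 433, 434, 415 and 489 CPM in the WT CTAL replicates 1, 3, 8, 10 and 22. The WT MTAL replicates 11, 13, 15, 17 and 19 had 539, 497, 594, 499 and 546 CPM, all above the highest WT CTAL pool. *Pou3f3* rose 1.21 times from WT CTAL to WT MTAL, a log2 fold change of 0.27 (SE 0.08, adjusted p = 0.0447). The call was lost, at an adjusted p of up to 0.128, without WT CTAL replicate 1, 3, 8 or 10 or WT MTAL replicate 11, 15 or 19. On TPM values the log2 fold change was 0.17 and the adjusted p 0.432 (limma on log2(TPM + 1)), and the groups overlapped in TPM and in CPM from total counts.

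In cKO MTAL, *Pou3f3* had 425, 377 and 464 CPM in replicates 16, 18 and 20, each below every WT MTAL pool. The log2 fold change was -0.34 (SE 0.11, adjusted p = 0.0796), which does not pass the threshold in the main test. It passed with DESeq2 (adjusted p = 0.0356), in edgeR's single fit of all 18 pools (0.024) and in edgeR without the filter on low counts (0.0499). It did not pass with limma on TPM values (-0.16, adjusted p = 0.542) or in edgeR's fit of all pools with a term for *Xist* (0.123). The groups overlapped in CPM from total counts and in TPM, with 87.9 to 108 in cKO MTAL and 99.7 to 120 in WT MTAL. In cKO CTAL the pools lay between 339 and 450 CPM, with a log2 fold change of -0.17 against WT CTAL (SE 0.09, adjusted p = 0.47).

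*Pou3f3* (1:42695768-42703176, plus strand) is overlapped on its own strand by the gene *AC122898.1*. The deposited counts of *Pou3f3* were not whole in any pool, for example 11328.78 in WT CTAL replicate 1 and 9328.62 in WT MTAL replicate 11. The part of reads that match both genes in the level of *Pou3f3* was not tested. *Pou3f3* shares its upstream region with *Pantr1*, a long noncoding RNA read in the opposite direction from a start site 926 bases away. *Pantr1* had a mean of 33.0 CPM in WT MTAL and 28.1 in cKO MTAL (log2 fold change -0.22, adjusted p = 0.588). The 250 bases before the RefSeq start of *Pou3f3* are shown because they lie between these start sites and *Pou3f3* was called between the WT segments (chr1:42695518-42695767, plus strand, GRCm38.p6). Capitals mark the letters CCAAT and GGGCGG on the printed strand:
Pou3f3 upstream: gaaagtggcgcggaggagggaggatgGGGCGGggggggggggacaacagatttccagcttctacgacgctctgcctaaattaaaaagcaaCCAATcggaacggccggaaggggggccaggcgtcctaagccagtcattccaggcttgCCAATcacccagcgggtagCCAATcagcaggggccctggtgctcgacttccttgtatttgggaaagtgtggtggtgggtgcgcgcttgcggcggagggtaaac

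Both strands were searched for 6 motifs. This stretch held CCAAT 3 times and GGGCGG, the GC box, once. It held no match to the ERR half-site (AAGGTCA), the TATA box (TATAAA), the AP-2 palindrome (GCCNNNGGC) or the forkhead core (TAAACA). Of 32851 RefSeq mouse promoters with 250 upstream bases, 33.8% held the CCAAT box, 32.7% the GC box, 4.08% the ERR half-site, 12.4% the TATA box, 13.7% the AP-2 palindrome and 12.03% the forkhead core. Its GC content was 60.8%, with 15 CpG dinucleotides, and the medians over all promoters were 52.4% and 6. RefSeq promoters were matched for 5 of the 9 genes (*Irx2*, *Irx3*, *Pou3f3*, *Tfap2b* and *Esrrg*).

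Of 5 genes known to depend on *Pou3f3* in the mouse loop of Henle (*Umod*, *Slc12a1*, *Bsnd*, *Kcnj1* and *Ptger3*), all were tested. They are also among the TAL markers. Between WT MTAL and WT CTAL, 1 fell and 4 did not pass. *Umod*, which encodes uromodulin, fell by 0.78 on the log2 scale (SE 0.09, adjusted p = 4.11e-05) where *Pou3f3* was higher. In cKO MTAL against WT MTAL, *Umod* rose by 0.67 (SE 0.11, adjusted p = 0.00223) and *Ptger3*, a prostaglandin receptor gene, fell by 0.49 (SE 0.14, adjusted p = 0.0403). *Slc12a1*, the salt cotransporter NKCC2, had a log2 fold change of -0.18 (adjusted p = 0.348). The median over the 5 genes was 0.25, against 0.00 over all genes tested. The genotype effects of the segments differed for *Umod* by 0.61 (SE 0.13, adjusted p = 0.045). Both comparisons use the WT MTAL pools, so that their signs are not independent.

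*Sim2* encodes a bHLH-PAS factor of the single-minded family. It was at 172, 192, 160, 192 and 187 CPM in the WT CTAL replicates 1, 3, 8, 10 and 22 and at 225, 248, 252, 193 and 201 CPM in the WT MTAL replicates 11, 13, 15, 17 and 19. The groups did not overlap, but the nearest pools differed by little: 192.46 and 192.55 CPM. The log2 fold change was 0.30 (SE 0.09, adjusted p = 0.0607), which does not pass in the main test, and it passed with the likelihood ratio tests of edgeR (0.0422) and DESeq2 (0.0281). On TPM values it was 0.22 (limma, adjusted p = 0.424), and the groups overlapped in TPM (61.1 to 87.8 in WT MTAL and 59.5 to 71.1 in WT CTAL) and in CPM from total counts. Levels in cKO MTAL were 194, 218 and 177 CPM in replicates 16, 18 and 20. Replicates 16 and 18 lay within the range of WT MTAL and replicate 20 within that of WT CTAL. The log2 fold change between cKO MTAL and WT MTAL was -0.18 (SE 0.12, adjusted p = 0.411).

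*Tfap2b* encodes AP-2 beta, a factor required for distal tubule development. In CPM its group means lay close together, at 339 ± 40.5 CPM in WT CTAL (SD, n = 5), 337 ± 26.5 in WT MTAL (n = 5), 348 ± 43.6 in cKO CTAL (n = 5) and 308 ± 36.6 in cKO MTAL (n = 3). Its log2 fold change was -0.01 between the WT segments (SE 0.09, adjusted p = 0.98), -0.13 between cKO MTAL and WT MTAL (SE 0.12, adjusted p = 0.56) and 0.03 between cKO CTAL and WT CTAL (SE 0.10, adjusted p = 0.952).

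*Esrrg* encodes the orphan nuclear receptor ERR gamma. Its levels in WT MTAL were 182, 211, 192, 173 and 210 CPM in replicates 11, 13, 15, 17 and 19. The cKO MTAL replicates 16, 18 and 20 had 147, 159 and 119 CPM, each below the lowest WT MTAL pool. *Esrrg* fell by 0.44 on the log2 scale (SE 0.13, adjusted p = 0.0436), to a ratio of 0.735. The call was lost without cKO MTAL replicate 16 or 20 or without WT MTAL replicate 11, 13, 15 or 19, at adjusted p values from 0.0595 to 0.173, with log2 fold changes between -0.47 and -0.33. It was also lost on TPM values (-0.49, adjusted p = 0.162). The groups overlapped in TPM (41.1 to 49.9 in cKO MTAL and 48.4 to 77.8 in WT MTAL) and in CPM from total counts (124 to 165 and 162 to 220.2).

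In CTAL, *Esrrg* did not separate by genotype, with 194, 183, 142, 179 and 191 CPM in the WT replicates 1, 3, 8, 10 and 22 and 170, 184, 168, 168 and 187 CPM in the cKO replicates 2, 4, 7, 9 and 21. Their log2 fold change was -0.03 (SE 0.09, adjusted p = 0.927). The cKO MTAL pools were below all cKO CTAL pools too, by a log2 fold change of -0.27 that does not pass (SE 0.11, adjusted p = 0.2). The genotype effects of the segments differed by -0.43 (SE 0.15, adjusted p = 0.159).

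*Ppargc1b* encodes PGC-1 beta, which does not bind DNA itself but activates genes through partners such as the estrogen-related receptors. It was the lowest member in 3 of the 4 groups in TPM and spread widely between pools: 22.1 to 43.4 CPM in WT CTAL, 28.8 to 42.9 in WT MTAL, 16.8 to 39.8 in cKO CTAL and 18.02 to 33.8 in cKO MTAL. None of its comparisons passed the test. The log2 fold change was -0.41 between cKO MTAL and WT MTAL (SE 0.21, adjusted p = 0.27) and -0.30 between cKO CTAL and WT CTAL (SE 0.21, adjusted p = 0.627).

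A list of 12 targets and partners of these regulators, from the respiratory chain, the citric acid cycle, fatty acid oxidation and mitochondrial biogenesis, was tested in full. It includes *Esrra*, the ERR alpha gene. None of the 12 passed edgeR's quasi-likelihood test in cKO MTAL against WT MTAL (4 had an unadjusted p under 0.05), where their median log2 fold change was -0.23 against 0.00 over all genes, and none passed between the WT segments (0 at an unadjusted p under 0.05) or between the CTAL groups (1 at an unadjusted p under 0.05). *Cpt1a*, which imports fatty acids into mitochondria, was the only one called in any comparison, being lower in cKO MTAL than in WT CTAL by 0.56 on the log2 scale (adjusted p = 0.0269). Among them, *Cycs*, the cytochrome c gene, had a log2 fold change of -0.25 (adjusted p = 0.226) and *Gabpa*, a regulator of mitochondrial genes, of -0.37 (adjusted p = 0.14) in cKO MTAL against WT MTAL.

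Counted over the 9 genes, 2 passed between the WT segments (*Pou3f3* higher and *Foxq1* lower in WT MTAL), and 3 did not overlap (*Foxq1*, *Pou3f3* and *Sim2*), where 6.87% and 7.38% of all genes did so (2.76% were called higher and 4.1% lower). The median log2 fold change of the 9 was -0.01, against 0.02 over all genes. Between cKO MTAL and WT MTAL, 3 passed (*Foxq1* and *Irx3* higher, *Esrrg* lower) and 4 did not overlap (these and *Pou3f3*), where the shares over all genes were 7.01% and 14.4% (4.44% were called higher and 2.57% lower). Of the called genes, *Foxq1* alone changed by at least 1 on the log2 scale, in both comparisons, as did 2.32% and 3.74% of all genes. The counts without overlap hold for TMM-normalized CPM: in CPM from total counts, *Pou3f3* and *Sim2* overlapped between the WT segments, and *Pou3f3* and *Esrrg* between cKO MTAL and WT MTAL. The 2 comparisons share the WT MTAL pools.

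Between cKO CTAL and WT CTAL, 0 of 9 passed in edgeR's quasi-likelihood test, 0 had an unadjusted p under 0.05, and 0 passed in the likelihood ratio tests of edgeR and DESeq2, where 1.22% of 11702 genes passed, 11.8% had such an unadjusted p and 3.1% did not overlap. No member was without overlap. The log2 fold changes lay between -0.30 and 0.22. Against cKO CTAL, 0 of 9 passed in cKO MTAL (1 at an unadjusted p under 0.05 and without overlap, *Esrrg*), where 1.75% of 12044 genes passed, 17.7% had such an unadjusted p and 10.1% did not overlap. Against WT CTAL, 0 of 9 passed in cKO MTAL as well (1 at an unadjusted p under 0.05, again *Esrrg*, and 0 without overlap), where the shares of 12024 genes were 2.5%, 20% and 11.8%. Neither comparison had a member called by the likelihood ratio tests of edgeR or DESeq2. In the interaction test 1 of 9 passed, *Foxq1*.

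**Figure D3:**
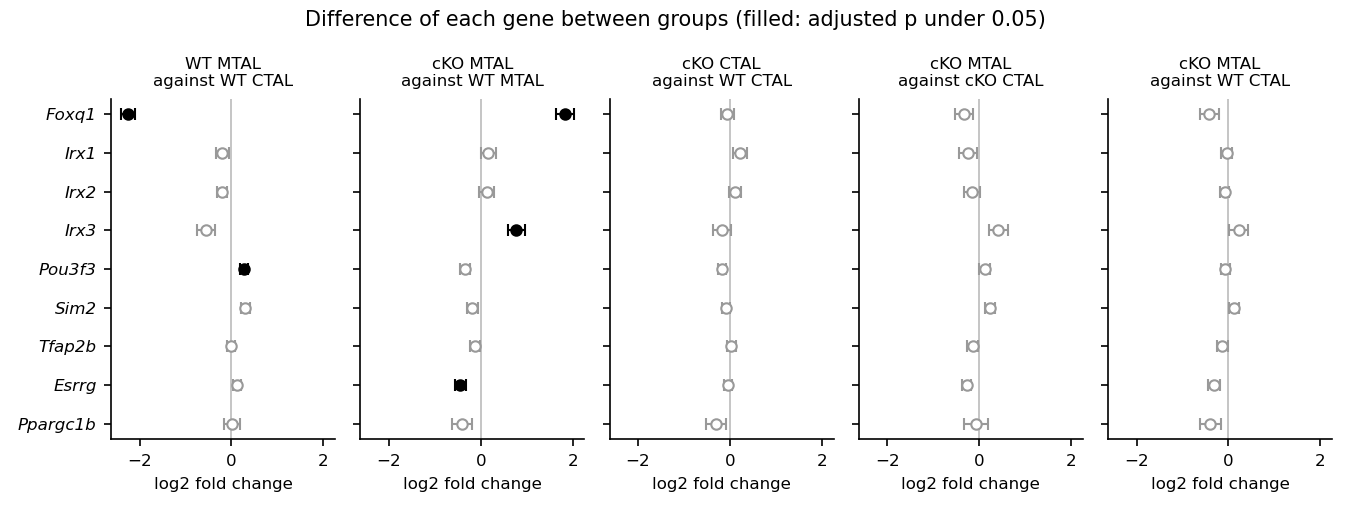
Log2 fold change ± SE (edgeR quasi-likelihood fit) of the 9 genes in 5 comparisons of groups, with filled points for an adjusted p under 0.05. *Foxq1* lies at -2.25 in WT MTAL against WT CTAL and at 1.83 in cKO MTAL against WT MTAL, and no point is filled in the other 3 comparisons.

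Marker sums also differed between the groups. Between the WT segments, the TAL markers summed to 51819 to 63327 CPM in WT MTAL and 85259 to 96834 in WT CTAL (1 of 8 higher and 3 lower in WT MTAL). *Umod* alone made up 23817 to 31781 CPM of these sums in WT MTAL and 44541 to 51237 in WT CTAL. The 4 thin limb markers summed to 776 to 1051 and 431 to 697 CPM (2 of 3 tested higher), the 4 immune cell markers to 86.4 to 131 and 133 to 178 (2 of 4 lower), and the 7 principal cell markers to 52.7 to 325 and 115 to 232 (1 of 7 lower). The part of these cells in the differences of *Foxq1* and *Pou3f3* was not tested.

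In cKO MTAL the TAL markers summed to 68375 to 80932 CPM, above WT MTAL without overlap (2 of 8 rose and 2 fell against WT MTAL, *Cldn10* among the latter). *Umod* alone made up 42537 to 47773 CPM of the sums in cKO MTAL and 23817 to 31781 in WT MTAL. The 5 endothelium markers summed to 92.3 to 134 CPM in cKO MTAL and 156 to 258 in WT MTAL, and 3 of 5 fell (*Emcn*, *Cdh5* and *Flt1*). The 5 intercalated cell markers summed to 33.0 to 193 and 15.98 to 70.4 CPM, and 1 of 4 tested rose. The 5 proximal tubule markers summed to 16.95 to 68.4 and 15.5 to 29.5 CPM, and 1 of 3 tested rose. The 4 thin limb markers summed to 691 to 759 and 776 to 1051 CPM, and 1 of 4 fell. Of the 7 principal cell markers none was called, but 4 had an unadjusted p under 0.05 (edgeR) and their median log2 fold change was 1.65. The part of these cells in the differences of *Foxq1*, *Irx3* and *Esrrg* was not tested. Without replicate 20, the pool with the highest principal and intercalated cell markers, the log2 fold change was 1.51 for *Foxq1*, 0.63 for *Irx3* and -0.33 for *Esrrg*. The calls of *Irx3* and *Esrrg* were lost without it, and for both genes no other single removal left a smaller change.

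**Figure D4:**
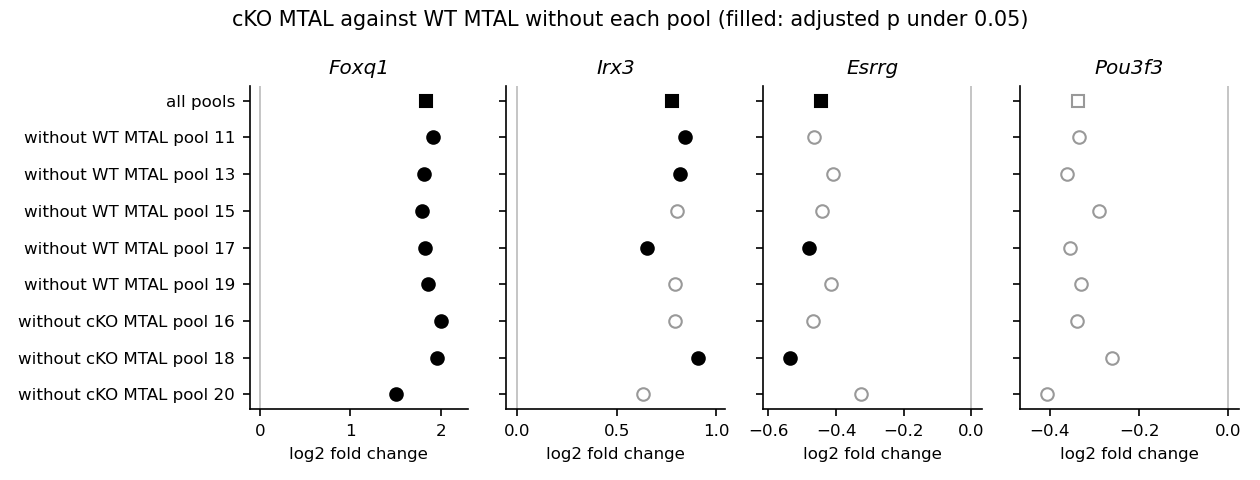
Log2 fold change of *Foxq1*, *Irx3*, *Esrrg* and *Pou3f3* between cKO MTAL and WT MTAL with all pools (squares) and without each pool in turn (circles), filled where the adjusted p is under 0.05. *Foxq1* is filled in all rows (1.51 or more), whereas *Irx3* is open without cKO MTAL replicate 16 or 20 or WT MTAL replicate 15 or 19, and *Esrrg* without cKO MTAL replicate 16 or 20 or WT MTAL replicate 11, 13, 15 or 19.

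The relatives of the members were followed as a list of 15 genes, of which 7 could be tested between cKO MTAL and WT MTAL. Of these, 0 rose, 2 fell and 5 did not pass. *Ppargc1a*, the PGC-1 alpha gene, was at 353 to 559 CPM in WT MTAL and 230 to 313 CPM in cKO MTAL, without overlap, and fell by 0.65 on the log2 scale (SE 0.15, adjusted p = 0.0167). *Sim1*, the paralog of *Sim2*, fell by 0.64 (SE 0.18, adjusted p = 0.0389), from 116 to 165 CPM in WT MTAL to 66.3 to 116 CPM in cKO MTAL. *Esrra* and *Esrrb*, the other estrogen-related receptors, had log2 fold changes of 0.05 (adjusted p = 0.853) and -0.13 (adjusted p = 0.613). In TPM, *Ppargc1a* exceeded *Ppargc1b* in every group, at 108 ± 25.8 in WT MTAL (n = 5) and 80.6 ± 6.64 in cKO MTAL (n = 3).

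Of the POU, Iroquois and AP-2 families only some genes were found at these levels. Beside *Pou3f3*, the POU genes *Pou3f1*, *Pou3f2* and *Pou3f4* reached at most 0.20 CPM in any pool. *Irx5* was at 1.78 to 4.04 CPM in WT MTAL and at 3.10, 3.65 and 8.12 CPM in the cKO MTAL replicates 16, 18 and 20. *Irx4* and *Irx6* reached at most 0.38. Of the AP-2 genes other than *Tfap2b*, *Tfap2a* had means from 2.58 to 5.22 CPM. The highest mean was that of cKO MTAL, with 3.32, 3.16 and 9.19 CPM in replicates 16, 18 and 20. *Tfap2c* reached 2.93 CPM in 1 pool, and *Tfap2d* and *Tfap2e* stayed at or below 0.28. Those of these genes that stayed under the filter on low counts were not tested for a change.

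Among 30 other regulators of nephron segments, 21 were tested in cKO MTAL against WT MTAL, of which 1 rose and 20 did not pass. *Tfcp2l1*, a factor of the distal nephron and collecting duct, rose by 1.03 (SE 0.16, adjusted p = 0.00109), from 283 to 445 CPM in WT MTAL to 529 to 889 CPM in cKO MTAL, and it fell by 0.93 between WT CTAL and WT MTAL (SE 0.15, adjusted p = 0.000628). *Foxq1* and *Tfcp2l1* were thus both lower in WT MTAL than in each of the other groups, with no overlap between WT MTAL and WT CTAL or cKO MTAL. *Elf3*, an epithelial ETS factor, was higher in cKO MTAL than in cKO CTAL (0.95, adjusted p = 0.00669) and WT CTAL (0.87, adjusted p = 0.0386), and its relative *Ehf* was higher in cKO MTAL than in WT CTAL (0.97, adjusted p = 0.00666). Of the 10 genes next to the members on the chromosomes, 6 were tested in cKO MTAL against WT MTAL and 0 passed in edgeR's quasi-likelihood test (1 at an unadjusted p under 0.05), among them *Foxc1* near *Foxq1* (0.07, adjusted p = 0.832) and *Fto* near *Irx3* (0.43, adjusted p = 0.0865). On the 121 transcription factors of the study's own list, all tested, 4 rose and 5 fell in cKO MTAL against WT MTAL and 3 rose and 4 fell in WT MTAL against WT CTAL. How the study chose that list is not given in the sources used here, and it holds 7 of the 9 genes, all but *Esrrg* and *Ppargc1b*.

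Genes were also ranked by how closely they followed each member over the 18 pools (Pearson's r of log2(CPM + 1), 12586 genes), which describes these pools and their groups only. Among the genes most like *Foxq1* were *C130074G19Rik* (r = 0.96) and *Rnaset2b* (0.95).

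For the other members the closest genes were *Abca4* (0.92), *Tns1* (0.91) and *Irs1* (0.90) for *Pou3f3*, *Map1b* (0.89), *Stat5a* (0.86) and *Pcsk6* (0.86) for *Sim2*, and *Trim33* (0.87), *Lin52* (0.87) and *Optn* (0.85) for *Esrrg*. *Irx3* was followed by *Ripor1* (0.83), *Tlnrd1* (0.82) and *Llgl2* (0.81), and *Ppargc1b* by *Jdp2* (0.84), *Cpt2* (0.80) and *Edar* (0.80). Beside each other, *Irx1* and *Irx2* were followed by *Eva1a* (0.80) and *Zfp503* (0.80) and by *Cnot3* (0.81) and *Trabd* (0.81). *Tfap2b* was followed by *Rpl3* (0.80), *Nrip2* (0.80) and *Rcor3* (0.78). Among the members themselves *Foxq1* ran against *Sim2* (r = -0.72) and *Pou3f3* (-0.65), and *Tfap2b* ran with *Ppargc1b* (0.67).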

How the data were processed

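Poly-A RNA from 18 TAL pools was sequenced in paired-end, strand-specific libraries. The authors trimmed the reads, aligned them to mm10 and quantified genes with DRAGEN. The tables deposited by the authors hold estimated counts, which need not be whole, and TPM per gene. The strand setting and the treatment of reads that match several genes are not given in the sources used here. Pools that the study left out after quality control were not analysed here.

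Estimated counts were rounded to whole numbers (the design had assumed whole counts). Genes at 3 CPM or more in at least 5 pools (3 in comparisons with cKO MTAL) were tested with edgeR 4.0.16 (quasi-likelihood F test, TMM) in R 4.3.3, on the pools of each comparison, and in all 18 pools for the interaction. P-values were adjusted by Benjamini-Hochberg over all genes tested, and an adjusted p under 0.05 was called. The SE was the absolute log2 fold change divided by the square root of F. Alternatives used DESeq2 1.42.0, limma 3.58.1 on log2(TPM + 1) or log2(TPM + 0.1), no filter, other normalizations, other fits and the removal of each pool. P-values measure the spread between pools. The fit was tested on data simulated with the same dispersion for every gene. For cKO MTAL against WT MTAL, 83 of 97 genes changed by 1 and 99 of 99 changed by 2 on the log2 scale were recovered. For the interaction these were 61 of 98 and 98 of 98. Smaller changes were not simulated. The members and gene lists were chosen with earlier results of these data known. Named genes were the members, the called genes of the lists with a few that were not called, and the 3 genes most like each member, of which 1 is not reported here. Replicates carry the pool numbers of the labels. Sequences come from GENCODE M21 transcripts and RefSeq promoters.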

Additional observations from a re-analysis of the deposited data

Results flagged for a closer look

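Of 27 groups of 5 pools (9 genes in 3 groups), 4 held a pool far from the others in CPM by Dixon's criterion, which chance gives in about 5% of groups. *Irx3* was at 84.4 CPM in WT CTAL replicate 22, where the next pool had 54.4. Without this pool the log2 fold change of *Irx3* between the WT segments was -0.35 (adjusted p = 0.268, edgeR). *Irx3* was at 23.7 CPM in WT MTAL replicate 17, where the next pool had 39.4. Without that pool the ratio of cKO MTAL to WT MTAL was 1.57 and the call was kept. *Tfap2b* was at 384 CPM in WT MTAL replicate 17, where the next pool had 330. *Esrrg* was at 142 CPM in WT CTAL replicate 8, where the next pool had 179.

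The effect of the genotype on *Foxq1* differed between MTAL and CTAL by 1.88 on the log2 scale (adjusted p = 0.00121, edgeR interaction test). Without each pool in turn this difference lay between 1.54 and 2.04.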

How the results depend on the processing

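No paired analysis was possible because the groups share no replicate numbers. The count of members called between WT MTAL and WT CTAL was 2, and it was 4 with DESeq2's likelihood ratio test and 3 with that of edgeR. It was 1 without the filter, with limma on log2(TPM + 1) or log2(TPM + 0.1), in one fit of all pools, in that fit with a term for *Xist*, and with WT CTAL replicate 1 counted as cKO. Leaving out each pool gave 1 to 3. Between cKO MTAL and WT MTAL the count was 3, and it was 1 with limma on either TPM scale, 4 with DESeq2's likelihood ratio test, without the filter and in one fit of all pools (each adding *Pou3f3*), and 1 to 3 without each pool. Between cKO MTAL and cKO CTAL it was 0, and 0 to 1 without each pool. The counts of the other comparisons did not change under the alternatives run, and no member's called difference changed sign. The cause of these changes was not tested. *Foxq1* kept its calls between the WT segments, between cKO MTAL and WT MTAL and in the interaction test under every alternative run. The low members had the fewest counts (336 in the lowest pool), and 3 cKO MTAL pools limit what the comparisons with that group can show.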
